A study of Mus musculus with 24 samples.

Results

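Monocytes are blood leukocytes that can enter inflamed tissue and become macrophages there. A set of 10 genes expressed by mouse monocytes was followed through RNA sequencing libraries of brain glia. The 10 genes, Ccr2, Ly6c2, Plac8, Chil3, Vcan, Fn1, Ifitm6, F10, Adgre4 and Adgre5, were taken by gene symbol and were all present among the 52404 gene identifiers shared by the microglia and astrocyte count tables. The libraries came from adult mice lacking Serpine2 (Serpine2-/-, knockout) and from littermates with 1 or 2 functional Serpine2 alleles (control), so that heterozygous and wild-type animals are not separated. Serpine2 encodes a secreted inhibitor of serine proteases such as thrombin.

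The 8 groups were LPS-injected knockout, LPS-injected control, saline-injected knockout and saline-injected control, each as microglia and as astrocytes, with 3 libraries in every group and 24 in all. Lipopolysaccharide (LPS) is a bacterial outer membrane component that sets off inflammation, and its dose, route and time before harvest were not given in the sources used here. The animals were perfused with buffer, which removes most blood from the vessels. Microglia were prepared from whole brain with a dounce homogeniser and Percoll, astrocytes from cortex with papain, and both were captured on antibody-coated dishes. A preparation was therefore an enriched mixture and not a sorted single type, and cell type went together with brain region, dissociation and gene annotation. The labels did not say which libraries came from separate animals beyond the mention of sibling pairs, so p-values measure only the spread between these libraries.

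Classical monocytes leave the bone marrow through Ccr2, the receptor for the chemokines Ccl2, Ccl7 and Ccl12, and carry the surface protein Ly6c2. Microglia belong to a separate, self-renewing lineage and normally express little of either gene. Monocytes that stay in blood can turn into patrolling monocytes, which lose Ccr2 and Ly6c2 and switch on genes such as Treml4, Spn and Nr4a1. The set is not specific to classical monocytes throughout: Adgre4 is also known from patrolling monocytes, Adgre5 is broadly expressed by leukocytes, and oligodendrocyte precursors, astrocytes, fibroblasts and endothelial cells can make the matrix proteins Vcan and Fn1. These are examples, and whether the other members, Chil3, Ifitm6 and F10 among them, are specific to monocytes was not tested.

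The sequences bearing on how these genes were measured, or on what lies before their starts, are shown next. Reads of Ly6c2 and of its neighbour Ly6c1, which endothelial cells express, can be hard to separate over part of the transcript. The open reading frames compared were 396 bases long in both genes and differed at only 9 positions (97.7% identity). For Ly6c1 the frame closest to that of Ly6c2 in length and sequence was taken. The first 150 bases, from the start codon, are given with the 6 differing bases in capitals; both genes lie on chromosome 15, and the transcripts are those of GENCODE M21 on GRCm38.
Ly6c2: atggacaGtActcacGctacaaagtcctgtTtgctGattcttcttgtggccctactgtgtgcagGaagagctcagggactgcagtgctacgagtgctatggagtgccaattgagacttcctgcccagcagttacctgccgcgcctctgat
Ly6c1: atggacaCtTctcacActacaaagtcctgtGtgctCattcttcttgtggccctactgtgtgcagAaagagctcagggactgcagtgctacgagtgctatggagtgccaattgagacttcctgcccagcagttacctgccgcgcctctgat
Over the whole of the Ly6c2 transcript, 252 of 773 windows of 50 bases also occurred in Ly6c1, so how the deposited counting treated reads common to both affects the Ly6c2 values. For Chil3, 275 of 1490 such windows occurred in Chil4. Plac8, Vcan, Fn1, Ifitm6, Adgre4 and Adgre5 shared no window with any other gene.

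The 250 bases before the start of the gene were available from RefSeq (GRCm38.p6) for 8 of the 10 members. They are printed for Plac8, F10 and Adgre4, which were higher after LPS in microglia preparations, and for Ccr2, which was not. Capitals mark matches, on either strand, to short motifs of factors that act in myeloid cells: GAGGAA (PU.1), TTGCNNAA (C/EBP), GAAA, 2 free bases and GAAA (IRF), GGGA, 4 free bases and CC (NF-kB), and TTCNNNGAA (STAT).
Plac8, chr5:100572206-100572455, minus strand: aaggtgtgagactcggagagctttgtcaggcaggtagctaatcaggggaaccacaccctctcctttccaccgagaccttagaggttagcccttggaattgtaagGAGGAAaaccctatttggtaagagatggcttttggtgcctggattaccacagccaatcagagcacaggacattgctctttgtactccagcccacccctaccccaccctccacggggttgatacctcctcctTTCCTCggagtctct
F10, chr8:13037058-13037307, plus strand: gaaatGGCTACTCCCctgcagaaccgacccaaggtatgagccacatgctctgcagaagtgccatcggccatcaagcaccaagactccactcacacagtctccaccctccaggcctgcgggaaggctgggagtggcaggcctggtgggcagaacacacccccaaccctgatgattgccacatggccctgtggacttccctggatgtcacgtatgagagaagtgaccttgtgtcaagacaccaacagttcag
Adgre4, chr17:55749734-55749983, plus strand: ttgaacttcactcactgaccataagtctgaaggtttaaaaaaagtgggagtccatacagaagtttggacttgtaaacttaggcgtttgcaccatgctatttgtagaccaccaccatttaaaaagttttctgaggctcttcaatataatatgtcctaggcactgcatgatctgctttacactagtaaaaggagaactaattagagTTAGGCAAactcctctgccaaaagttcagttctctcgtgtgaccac
Ccr2, chr9:124101933-124102182, plus strand: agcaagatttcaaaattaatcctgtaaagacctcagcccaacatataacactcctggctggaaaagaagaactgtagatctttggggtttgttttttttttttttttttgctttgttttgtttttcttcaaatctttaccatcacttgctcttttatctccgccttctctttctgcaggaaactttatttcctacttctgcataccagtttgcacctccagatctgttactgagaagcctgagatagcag
Plac8 held 2 PU.1 matches, 146 and 15 bases before its start, F10 held 1 NF-kB match and Adgre4 held 1 C/EBP match, while the Ccr2 window held none of the 5 motifs. Of the other matched members, Ly6c2 held 1 PU.1 match, Chil3 1 NF-kB and 1 STAT match, Ifitm6 1 STAT match and Vcan none. Such matches are common: over 32851 windows of the same length, 23.3% held the PU.1 motif, 17.6% the NF-kB, 9.56% the C/EBP, 7.02% the STAT and 2.98% the IRF motif.

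Counts in genes totalled 4506142 to 13621776 for a microglia library, against 10944765 to 25135252 for an astrocyte library. Serpine2 itself was 16.9 to 20.7 CPM (counts scaled by library size) in the 6 knockout microglia libraries and 46.6 to 96.5 CPM in the 6 control ones, and 16.4 to 22.2 CPM in knockout against 78.2 to 169 CPM in control astrocytes, without overlap in either. The sex-linked transcripts Xist and Ddx3y matched the sex on the label in 23 libraries. Microglia LPS control 1, labelled female, had 73 Xist and 251 Ddx3y counts. By label, microglia libraries 1, 2 and 3 were male, female and male with saline and female, male and female with LPS, in both genotypes. Sex therefore went partly together with injection in microglia, and the fits with sex as a covariate used these labels. Microglia LPS knockout 1 stood apart for the monocyte genes: it was the highest of the 6 LPS microglia libraries for 7 of them (Adgre4, Ccr2, Chil3, F10, Fn1, Plac8 and Vcan), and the 10 genes summed to 462 CPM there. They summed to 224.8 to 273 CPM in the other 5 LPS microglia libraries. The cell type labels matched the markers, each set being higher in its own libraries. The 11 microglia markers summed to 907 to 3958 CPM in microglia and 79.2 to 213 CPM in astrocyte libraries. The 10 astrocyte markers summed to 763 to 1080 CPM in microglia and 15582 to 21743 CPM in astrocyte libraries. Microglia libraries also held markers of other cells. The 6 oligodendrocyte markers summed to 1311 to 4021 CPM there, and the 5 neuron markers to 1402 to 1854 CPM. With LPS their medians, 1934 and 1442 CPM, were above the 1242 CPM of the microglia markers. With saline the medians were 2750 and 1667 CPM, against 2706 CPM for the microglia markers. Such sums do not measure shares of cells. Values without LPS control 1 or LPS knockout 1 are given where a result rests on them.

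In microglia preparations all 10 genes were detected in each of the 12 libraries and passed the filter on low counts. Levels of different genes were set side by side per kilobase of exon, with all annotated exons of a gene joined. The order depends on this length. For Ly6c2 it was 2.74 kilobases, although its longest protein-coding transcript held only 773 overlapping windows of 50 bases, so its value is low on this scale. Ifitm6 (an interferon-induced transmembrane family member) and Chil3 (a secreted chitinase-like protein, also known as Ym1) were the most abundant, averaging 23.2 and 16.1 CPM per kilobase. Adgre5, Fn1, Vcan and Plac8 followed between 6.62 and 4.81 CPM per kilobase, then Ly6c2 at 3.32, F10 at 2.53 and Adgre4 at 2.14 CPM per kilobase. Ccr2 had the lowest mean over the 12 libraries, 0.724 CPM per kilobase, against 73.0 CPM per kilobase for the microglial receptor gene P2ry12. The order differed between groups: with saline, F10 and Adgre4 were below Ccr2 in knockout preparations (0.724 and 0.352 against 0.874 CPM per kilobase) and in control preparations (0.377 and 0.433 against 0.790 CPM per kilobase). In CPM the ranges over the 12 libraries of neighbours in this order overlapped widely, for example 7.95 to 35.9 CPM for Ifitm6 and 6.72 to 70.4 CPM for Chil3.

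**Figure D1:**
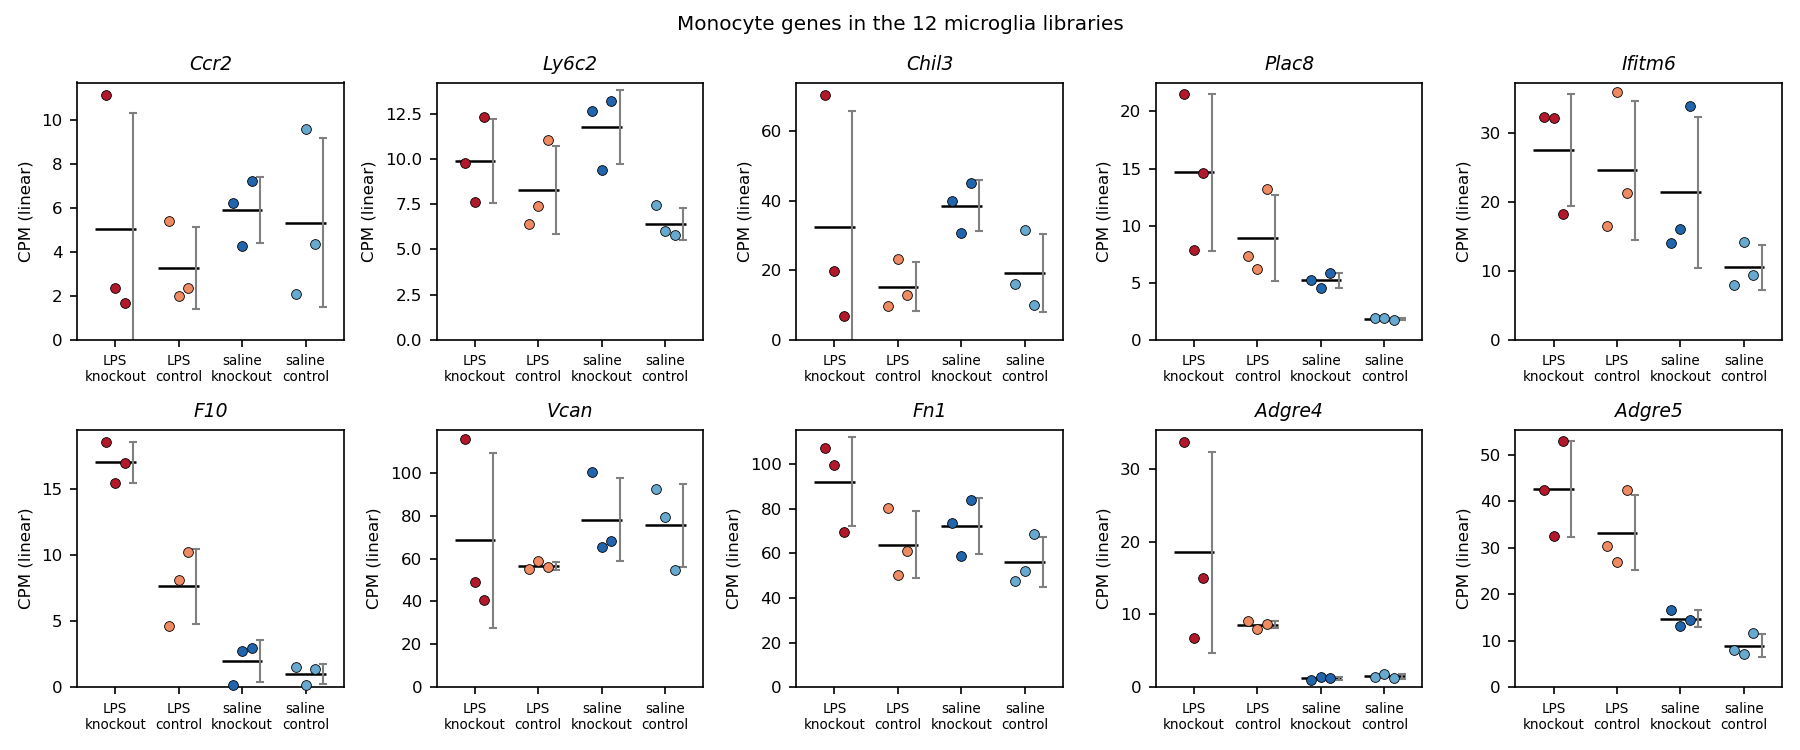
CPM (linear axis from 0) of the 10 monocyte genes in the 12 microglia libraries, by injection and Serpine2 genotype; points are libraries, black lines group means, grey bars ± 1 SD (drawn no lower than 0), n = 3 a group. Adgre4, Adgre5, F10 and Plac8 sit higher in every LPS library than in any saline library, whereas Ccr2, Ly6c2, Chil3 and Vcan overlap.

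After LPS, the monocyte genes of microglia preparations divided: Adgre4, F10, Plac8 and Adgre5 rose and the 6 others, Ccr2 and Ly6c2 among them, did not pass the test. Averaged over both genotypes, edgeR called these 4 of the 10 members at an adjusted p under 0.05, all higher with LPS, whereas 2.7% of all 22230 genes tested were called and 2.19% were called higher. In the same 4 genes no LPS library overlapped any saline library, which held for 1.92% of all genes in the direction of higher with LPS. The median log2 fold change was 0.53 over the 10 members and -0.03 over all genes. Because these are bulk preparations, a change in the number of cells of a type and a change in RNA per cell cannot be told apart, here or in later results.

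Adgre4 and Adgre5 encode adhesion G protein-coupled receptors of myeloid cells and leukocytes; Adgre5 binds Cd55. Adgre4 (GRCm38 chr17:55749984-55853662, plus strand) was 33.7, 6.79 and 15.04 CPM in LPS knockout, 9.05, 8.02 and 8.70 CPM in LPS control, 1.04, 1.38 and 1.26 CPM in saline knockout and 1.38, 1.88 and 1.27 CPM in saline control preparations. The lowest LPS library was thus above the highest saline library, and LPS knockout 1 stood well above the others. Its log2 fold change came to 3.20 ± 0.34 (SE; edgeR adjusted p = 6.1e-05, n = 6 libraries each), the largest of the 10, and it was 2.86 without LPS knockout 1. Adgre5 (chr8:83723251-83741326, minus strand) was 42.3, 32.5 and 53.0 CPM in LPS knockout, 30.4, 26.9 and 42.3 CPM in LPS control, 16.7, 13.1 and 14.5 CPM in saline knockout and 7.95, 7.19 and 11.7 CPM in saline control preparations. It rose by 1.70 ± 0.19 on the log2 scale (SE; edgeR adjusted p = 7.4e-05). Ddx39 overlaps Adgre5 on the opposite strand, and the strand setting of the counting was not given in the sources used here, so reads of the 2 genes may not be fully separated.

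F10 encodes coagulation factor X, the zymogen that, once activated, converts prothrombin to thrombin. F10 (chr8:13037308-13056676, plus strand) was 18.5, 15.5 and 17.0 CPM in LPS knockout, 4.60, 8.09 and 10.2 CPM in LPS control, 0.174, 2.77 and 2.99 CPM in saline knockout and 1.55, 0.171 and 1.36 CPM in saline control preparations. The lowest saline library of each genotype stood far under the other 2. The log2 fold change came to 2.91 ± 0.41 (SE; edgeR adjusted p = 0.00073). Plac8 encodes a small cysteine-rich protein of myeloid cells, and Plac8 (chr5:100553725-100572245, minus strand) was 21.5, 7.85 and 14.6 CPM in LPS knockout, 7.31, 6.22 and 13.2 CPM in LPS control, 5.21, 4.52 and 5.86 CPM in saline knockout and 1.90, 1.88 and 1.72 CPM in saline control preparations. It rose by 1.89 ± 0.27 on the log2 scale (SE; edgeR adjusted p = 0.00087), and its 4 groups stood in the order LPS knockout, LPS control, saline knockout, saline control by mean.

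The 2 genes that define classical monocytes most directly did not pass the test. Ccr2 (chr9:124101950-124113557, plus strand) was 11.1, 2.33 and 1.68 CPM in LPS knockout, 5.43, 2.00 and 2.36 CPM in LPS control, 6.25, 4.25 and 7.24 CPM in saline knockout and 2.07, 9.58 and 4.36 CPM in saline control preparations. Of the 6 LPS libraries 4 were at 2.36 CPM or less, and of the 6 saline libraries 1 was, but the ranges overlapped. The log2 fold change came to -0.45 ± 0.46 (SE; edgeR adjusted p = 0.746), or -1.13 (adjusted p = 0.122) without LPS knockout 1. Ly6c2 (chr15:75108158-75111970, minus strand) was 9.77, 7.64 and 12.3 CPM in LPS knockout, 6.41, 7.40 and 11.1 CPM in LPS control, 12.7, 9.42 and 13.2 CPM in saline knockout and 7.43, 5.99 and 5.81 CPM in saline control preparations. Its log2 fold change was 0.07, with a 95% interval of -0.36 to 0.50 (edgeR adjusted p = 0.927). Ly6c1 stayed at 0.0907 to 0.877 CPM in the 12 microglia libraries.

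The remaining 4 members also missed the threshold. Ifitm6 (chr7:141015699-141017924, minus strand) had a median of 26.8 CPM in LPS preparations (16.6 to 35.9) and of 14.1 CPM in saline preparations (7.95 to 34.01). Its log2 fold change came to 0.80 ± 0.27 (SE; edgeR adjusted p = 0.188). It was called without the filter on low counts (adjusted p = 0.00262) and without saline knockout 3 (1.06, adjusted p = 0.043). The adjusted p without the filter was below the unadjusted edgeR p with it (0.010), so that fit differed for the gene itself. Fn1 (chr1:71585520-71653200, minus strand), which encodes the matrix glycoprotein fibronectin, had medians of 74.9 CPM with LPS and 63.9 CPM with saline and a log2 fold change of 0.27. Vcan (chr13:89655312-89742509, minus strand), the proteoglycan versican, had medians of 55.6 and 73.8 CPM in LPS and saline preparations and a log2 fold change of -0.30. Chil3 (chr3:106147554-106167564, minus strand) varied widely between libraries of a group, with 70.4, 19.7 and 6.72 CPM in LPS knockout preparations and 10.1 to 45.2 CPM over the 6 saline ones, and its log2 fold change was -0.29.

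**Figure D2:**
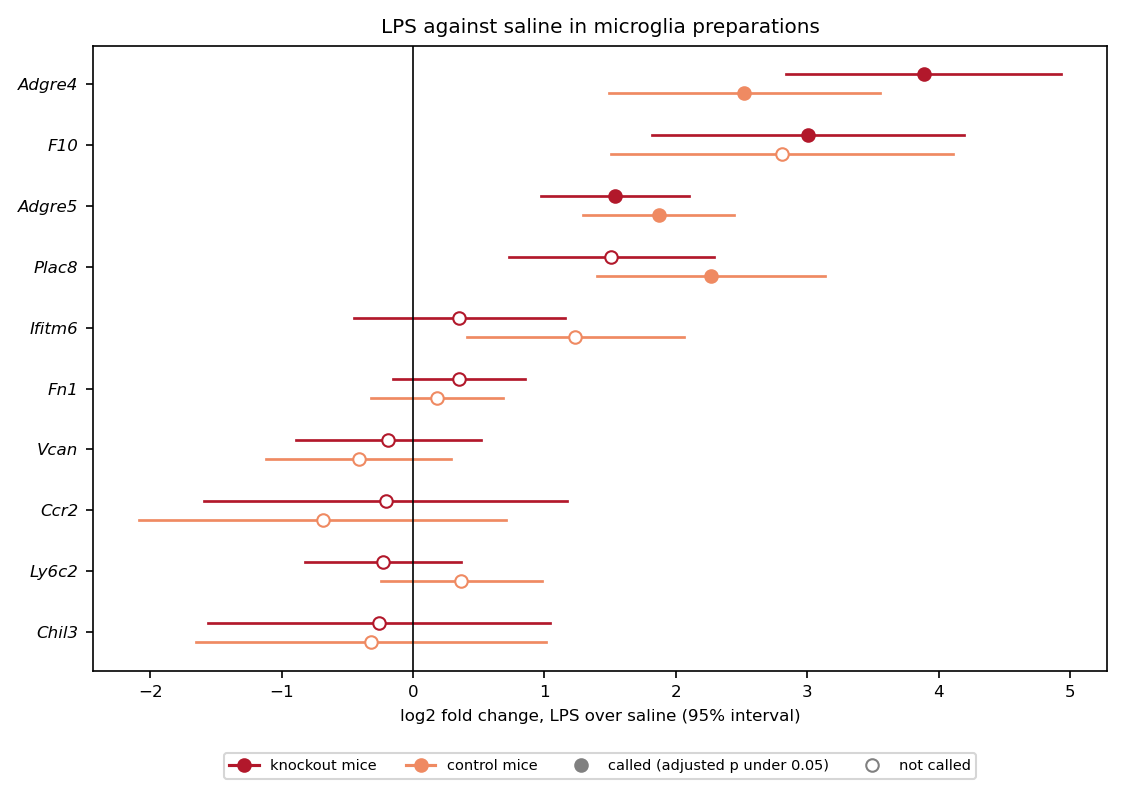
Log2 fold change of LPS over saline in microglia preparations with its 95% interval, for the 10 monocyte genes, in knockout mice (dark) and control mice (light); filled circles passed an edgeR adjusted p under 0.05. Adgre4, F10, Adgre5 and Plac8 lie above 0 with their whole intervals in both genotypes, and the intervals of Ccr2, Ly6c2, Chil3, Vcan and Fn1 include 0 in both.

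The same 4 genes were the ones with large LPS responses in each genotype taken alone. In knockout mice edgeR called 3 of the 10 members (1.14% of all genes were called, and 1.01% higher), namely Adgre4 (log2 fold change 3.89, adjusted p = 0.0011), F10 (3.01, adjusted p = 0.0128) and Adgre5 (1.54, adjusted p = 0.00783), while Plac8 reached 1.51 (adjusted p = 0.0659). In control mice it also called 3 (0.576% of all genes), namely Plac8 (2.27, adjusted p = 0.0133), Adgre4 (2.52, adjusted p = 0.0218) and Adgre5 (1.87, adjusted p = 0.00281), while F10 reached 2.81 (adjusted p = 0.0585). DESeq2 called all 4 genes in both genotypes, but the share of all genes it called is not set beside this count. Libraries did not overlap for 4 members in knockout mice (7.39% of all genes, higher with LPS) and for 5 in control mice (5.46% of all genes), where Ifitm6 was the additional one. In control mice the count of called members was 1, Adgre5, when any of saline control 1, saline control 3 or LPS control 3 was left out; without LPS control 1, the library whose sex label was not matched, Adgre4 had an adjusted p of 0.0534 and F10 of 0.0392. In knockout mice it was 1, Adgre4, without saline knockout 2.

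The LPS responses of the 2 genotypes were not shown to differ. The test of the difference, knockout response minus control response, called none of the 10 members and 0% of all genes with edgeR, and 0 members had an unadjusted p under 0.05, against 1.13% of all genes (251 genes). DESeq2 called none of the members either. The difference was above 0 for 6 members (58.7% of all genes). It was widest for Adgre4, at 1.37 ± 0.69 (SE), with a 95% interval of -0.11 to 2.84, and without LPS knockout 1 it was 0.59.

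Other genes of monocytes were also called higher with LPS in microglia preparations. Over all 22230 genes tested, 2.7% were called and 2.19% were called higher. Of 22 further genes of classical monocytes, 20 passed the filter and 10 were called by edgeR, all higher with LPS. The log2 fold changes were 3.68 for Clec4e (a C-type lectin that senses damage), 2.84 for Itgal (the integrin alpha chain of LFA-1), 2.51 for Tgfbi (a matrix protein induced by TGF-beta) and 2.02 for Lgals3 (galectin-3). The list's median was 1.05. Of 11 genes of patrolling monocytes, 10 passed the filter and 3 were called higher: Treml4 averaged 15.01 ± 7.29 CPM in LPS and 0.826 ± 0.442 CPM in saline preparations (SD, n = 6 each), Spn (CD43) 26.8 ± 9.70 and 4.49 ± 2.89 CPM, and Gngt2 27.2 ± 11.4 and 8.22 ± 3.36 CPM. All 10 had a log2 fold change above 0, with a median of 0.71.

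Genes of the chemokines Ccl2 and Ccl12, which act on Ccr2, rose with LPS, while the receptor gene did not pass the test. Of 11 genes for Ccr2 ligands, adhesion molecules and related factors, 8 passed the filter and 4 were called, all higher: Ccl12 at 32.1 ± 14.2 CPM in LPS and 6.10 ± 2.55 CPM in saline preparations (SD, n = 6 each), Ccl2 at 8.53 ± 4.36 and 1.93 ± 0.630 CPM, the chemokine-scavenging receptor gene Ackr2 at 2.67 ± 0.912 and 0.876 ± 0.374 CPM, and the adhesion molecule gene Icam1 at 15.4 ± 3.97 and 8.35 ± 1.25 CPM. Icam1 was not called with sex as a covariate (adjusted p = 0.083) or without saline knockout 3, LPS control 3 or LPS knockout 2 (adjusted p from 0.057 to 0.071). Of 25 relatives and partners of the members, 22 passed and 8 were called higher, led by Ifitm1, Ifitm2 and Ifitm3 with log2 fold changes of 3.998, 2.95 and 2.75, and by Ly6a with 1.87. Ifitm6 and Ly6c2, the members of those 2 families, had log2 fold changes of 0.80 and 0.07 and were not called. In the same comparison 2.7% of all genes were called and 2.19% were called higher. The lists were chosen with earlier results of these data known, so their counts are descriptions.

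Other cell types moved with LPS in the same libraries, and their part in the result was not tested. Of all genes, 2.7% were called in this comparison and 2.19% were called higher. The 11 microglia markers summed to 907 to 1747 CPM in LPS and 1667 to 3958 CPM in saline preparations, with 8 called lower, and none of them was at 0 in any library. The 11 neutrophil markers summed to 413 to 1102 CPM with LPS and 752 to 2590 CPM with saline, with 4 called lower. The 6 lymphocyte markers of T and NK cells summed to 9.87 to 36.7 CPM with LPS and 2.07 to 3.99 CPM with saline, and the 3 that passed the filter were called higher. The 8 markers of border macrophages, which resemble monocyte-derived cells, summed to 121 to 188 CPM with LPS and 102 to 234 CPM with saline, with 0 called by edgeR and 3 at an unadjusted p under 0.05. The share of all genes at that unadjusted p is not set beside this count. The 4 dendritic cell markers summed to 32.7 to 59.2 CPM with LPS and 36.1 to 56.2 CPM with saline. The 6 markers of oligodendrocyte precursors, which also make versican, summed to 96.8 to 116 CPM with LPS and 71.7 to 172 CPM with saline. Reads outside annotated genes made up 56.2% to 72.7% of microglia reads, against 15.9% to 21.1% in astrocytes.

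In microglia preparations of Serpine2 knockout mice all 10 monocyte genes leaned higher than in controls when all 12 libraries were kept, but none passed the test over all genes. Averaged over both injections, edgeR called 0 of the 10 members and 1 gene in all (0.0045%), and DESeq2 called none of the members. All 10 log2 fold changes were above 0, as were those of 47.2% of all genes, and their median was 0.56 against -0.01 over all genes. With single libraries left out, 8 to 10 were above 0, and the lowest values were -0.27 for Ccr2 and -0.13 for Vcan. At an unadjusted p under 0.05, 7 of the 10 were higher, compared with 1.12% of all genes. These 7 were Plac8 (1.12 ± 0.27, SE), F10 (1.06 ± 0.41), Chil3 (1.05 ± 0.44), Ifitm6 (0.60 ± 0.27), Ly6c2 (0.58 ± 0.20), Adgre5 (0.53 ± 0.19) and Fn1 (0.44 ± 0.17). Adgre4 (0.44), Ccr2 (0.39) and Vcan (0.16) were not among them. Without the filter on low counts edgeR called Plac8 (adjusted p = 0.020) and Chil3 (adjusted p = 0.00029). For Chil3 that adjusted p was below the unadjusted edgeR p with the filter (0.031), so leaving out the filter changed the fit of the gene itself. The share of all genes called without the filter is not set beside these 2 calls, so they are not read as effects of the knockout. Without saline knockout 3, the highest saline library for 6 members, 4 members were higher at an unadjusted p under 0.05. The members are often made by the same cells, so their counts are not 10 independent observations.

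In saline-injected mice, where the knockout was compared with the control without LPS, Plac8, Ly6c2 and Adgre5 showed no overlap between the genotypes, which held for 2.53% of all genes in the direction of higher in the knockout. The saline values given above put Plac8 at 5.20 ± 0.668 CPM in knockout and 1.84 ± 0.0970 CPM in control, Ly6c2 at 11.8 ± 2.05 and 6.41 ± 0.888 CPM, and Adgre5 at 14.8 ± 1.79 and 8.95 ± 2.42 CPM in knockout and control preparations (SD, n = 3 each). The log2 fold changes were 1.50 for Plac8, 1.04 for Ifitm6, 0.88 for Ly6c2 and 0.70 for Adgre5, the 4 members at an unadjusted p under 0.05 (0.922% of all genes), and every adjusted p was 1.00 after rounding. Chil3, with 38.6 ± 7.29 CPM in knockout and 19.2 ± 11.2 CPM in control preparations, and F10 had log2 fold changes of 1.02 and 0.97. Fn1 (0.36), Ccr2 (0.15) and Vcan (0.05) were closer to 0, and Adgre4, at -0.25, was the only member below it, so that 9 of 10 were above 0 compared with 42% of all genes. With single libraries left out, 7 to 9 members were above 0. In this comparison edgeR called no gene and DESeq2 called 1, not a member, and 1.58% of all genes had an unadjusted p under 0.05 in edgeR.

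In LPS-injected mice F10 was the only member without overlap, at 17.0 ± 1.53 CPM in knockout and 7.63 ± 2.83 CPM in control preparations (SD, n = 3 each), and 2.52% of all genes behaved so in that direction. All 10 members had log2 fold changes above 0, as did 50.3% of all genes. At an unadjusted p under 0.05, 3 were higher (0.918% of all genes): F10 at 1.16, Adgre4 at 1.12 and Fn1 at 0.53. The others ran from 0.15 for Ifitm6 to 1.08 for Chil3, with Plac8 at 0.74, Ccr2 at 0.63, Adgre5 at 0.37, Ly6c2 at 0.28 and Vcan at 0.27. Much of this rested on LPS knockout 1: without it, 0 of the 10 had an unadjusted p under 0.05, and the log2 fold changes of Ccr2, Chil3 and Vcan were -0.73, -0.25 and -0.33. As with saline, edgeR called no gene and DESeq2 called 1, not a member, and 1.51% of all genes had an unadjusted p under 0.05 in edgeR.

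**Figure D3:**
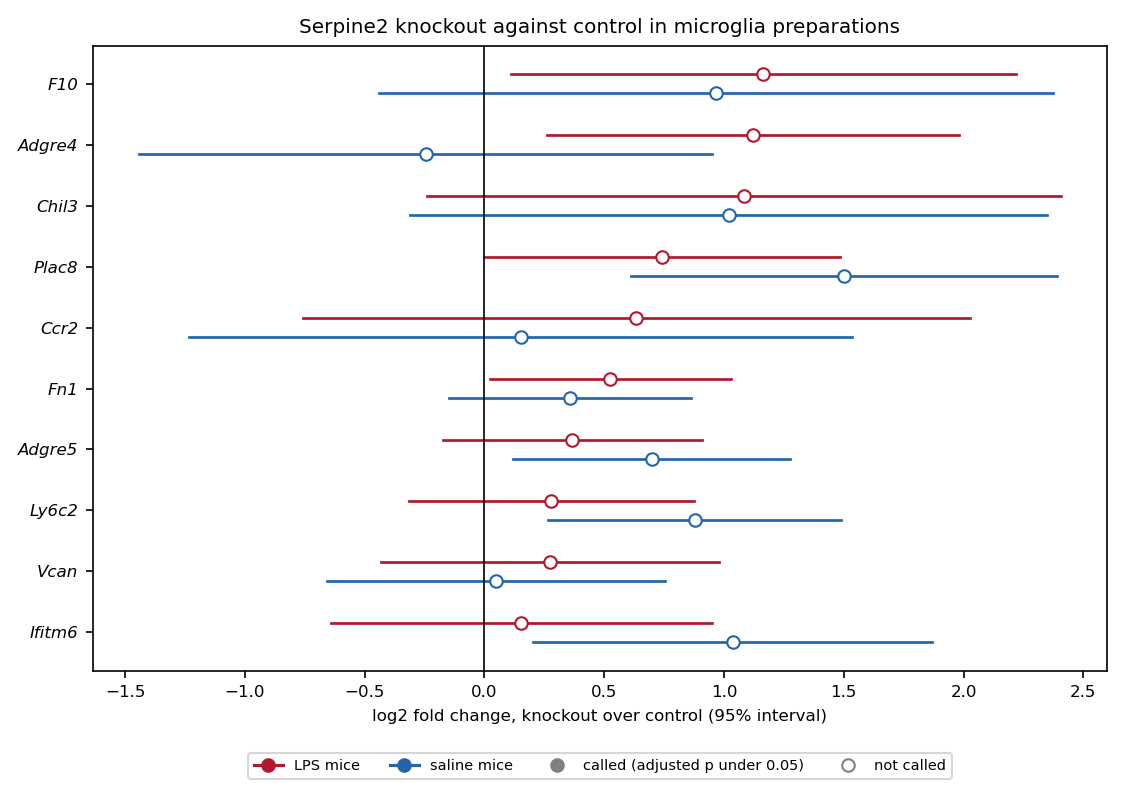
Log2 fold change of Serpine2 knockout over control in microglia preparations with its 95% interval, for the 10 monocyte genes, in LPS mice (red) and saline mice (blue); open circles did not pass an edgeR adjusted p under 0.05. All estimates but that of Adgre4 in saline mice lie above 0, no circle is filled, and most intervals are wide.

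Further monocyte genes leaned the same way in the knockout, again without a call. Averaged over injections, 47.2% of all genes were above 0 and 1.12% were higher at an unadjusted p under 0.05. Among the 20 measured genes of the classical list, 19 had a log2 fold change above 0 averaged over injections, 12 were higher at an unadjusted p under 0.05, and the median was 0.71. Its most abundant genes were Lyz2, which encodes lysozyme of myeloid cells, at 0.79 ± 0.14 (SE; edgeR adjusted p = 0.492), and Tgfbi at 0.59 ± 0.17. The patrolling list had 8 of 10 above 0 with a median of 0.07, and its most abundant genes Nr4a1 and Pou2f2, which neurons and lymphocytes also use, were at -0.51 and -0.29. The recruitment list had 6 of 8 above 0 with a median of 0.09, with Ackr1 at 0.00 and Csf1 at -0.11. Partners and relatives had 15 of 22 above 0 with a median of 0.18, with Ly6e at -0.18 and Thy1 at -0.31.

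Neutrophil markers were also at different levels in the same saline libraries, with 0 of 11 called by edgeR and 9 higher at an unadjusted p under 0.05 (0.922% of all genes). They summed to 1406 to 2590 CPM in saline knockout and 752 to 900 CPM in saline control preparations, with 10 of the 11 above 0 (42% of all genes) and a median log2 fold change of 1.14. In LPS mice they summed to 413 to 1102 CPM in knockout and 664 to 1009 CPM in control preparations, with 6 of 11 above 0 (50.3% of all genes) and a median of 0.04. Saline knockout 3, the highest saline library for 6 monocyte genes, was also the highest for the neutrophil markers, at 2590 CPM. Likewise LPS knockout 1, the highest LPS library for 7 monocyte genes, had the highest neutrophil sum with LPS, 1102 CPM. The microglia markers summed to 1667 to 3911 CPM in saline knockout and 2248 to 3958 CPM in saline control preparations. Averaged over injections, none of the 11 microglia markers was above 0 (47.2% of all genes were), and their median was -0.36. Of these 11 markers, 3 had an unadjusted p under 0.05 (2.02% of all genes), and edgeR called 0 of them. The part of these cells in the values of the monocyte genes was not tested.

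The genes whose profile over the 12 microglia libraries lay closest to that of Ccr2, by the mean absolute difference in centred log2 CPM among 13843 annotated genes, were BC055308 (0.35), Kcnj13 (0.36), Ranbp3l (0.38), Trim12a (0.39) and Zfp955a (0.39), where the median gene was at 0.81. For Ly6c2 they were Pcdhb2 (0.18), Zfp473 (0.21), Lsp1 (0.23), Apoo-ps (0.24) and S100a11 (0.24), where the median gene was at 0.43. None of these 10 genes was on the 4 lists of monocyte-related genes.

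In astrocyte preparations 7 of the 10 genes were near the limit of detection and did not pass the filter. Ccr2, Plac8 and F10 had 0 counts in each of the 6 saline libraries, which allows up to 0.137 to 0.215 CPM per library if 3 counts are taken as the limit. In the 6 LPS libraries together they had 6, 7 and 2 counts. Ly6c2 had 27 counts in LPS and 2 in saline libraries, Ifitm6 41 and 5, Adgre4 17 and 7, and Chil3 107 and 2. Of the 107 counts of Chil3, 88 came from LPS knockout 2 alone (4.74 CPM). Such limits cover counting error only. Ly6c1, the near-identical relative of Ly6c2, was 5.93, 22.8 and 3.98 CPM in LPS knockout and 4.29, 5.34 and 0.989 CPM in LPS control preparations and at most 0.211 CPM with saline, and Ly6c2 and Ly6c1 were both highest in LPS knockout 2.

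The 3 members that passed the filter in astrocyte preparations behaved differently from one another after LPS. Fn1 was 6.33, 32.6 and 16.3 CPM in LPS knockout, 8.72, 16.3 and 19.4 CPM in LPS control, 2.11, 1.76 and 1.65 CPM in saline knockout and 4.75, 0.502 and 4.06 CPM in saline control preparations. Every LPS library was above every saline library, as in 2.67% of all 18188 genes tested, and Fn1 rose by 2.78 ± 0.47 on the log2 scale (SE; edgeR adjusted p = 0.00214), the 1 member of 3 called, where 6.9% of all genes were called and 4.98% were called higher. Within genotypes its log2 fold change was 3.31 in knockout mice (adjusted p = 0.0256, with 1.56% of all genes called and 1.35% called higher) and 2.26 in control mice (adjusted p = 0.127, with 0.929% of all genes called and 0.775% called higher; DESeq2 called it). The call in knockout mice was lost without LPS knockout 2 (2.61, adjusted p = 0.0772) and without any one of the 3 saline knockout libraries (adjusted p from 0.134 to 0.157).

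Vcan was 158, 82.5 and 46.4 CPM in LPS knockout, 111, 78.6 and 31.2 CPM in LPS control, 50.1, 30.4 and 40.5 CPM in saline knockout and 56.0, 57.6 and 59.7 CPM in saline control preparations. Its ranges overlapped, and the log2 fold change came to 0.80 ± 0.30 (SE; edgeR adjusted p = 0.131); without LPS control 3 or LPS knockout 3 it was called, with adjusted p of 0.0184 and 0.0279. Adgre5 was 7.59 to 13.1 CPM over the 6 LPS and 6.76 to 16.7 CPM over the 6 saline libraries, with a log2 fold change of 0.09 and a 95% interval of -0.44 to 0.63. Neither genotype comparison gave a call among the 3 members: averaged over injections, knockout over control was -0.07 for Vcan, -0.21 for Fn1 and 0.07 for Adgre5, with 0.0055% of all genes called by edgeR and 2.97% at an unadjusted p under 0.05 (1.39% higher), which none of the 3 reached. DESeq2 called none of the 3 there. Adgre5 was the 1 member of 3 above 0, where 50.2% of all genes were. In saline mice the 3 values were -0.52 for Vcan, -0.74 for Fn1 and 0.05 for Adgre5, again 1 of 3 above 0 (48% of all genes), and Vcan was lower in every saline knockout library than in any saline control library, where 9.09% of all genes did not overlap in one direction or the other. In LPS mice all 3 were above 0 (52.8% of all genes), at 0.38, 0.32 and 0.09, and none was higher at an unadjusted p under 0.05 (1.48% of all genes).

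**Figure D4:**
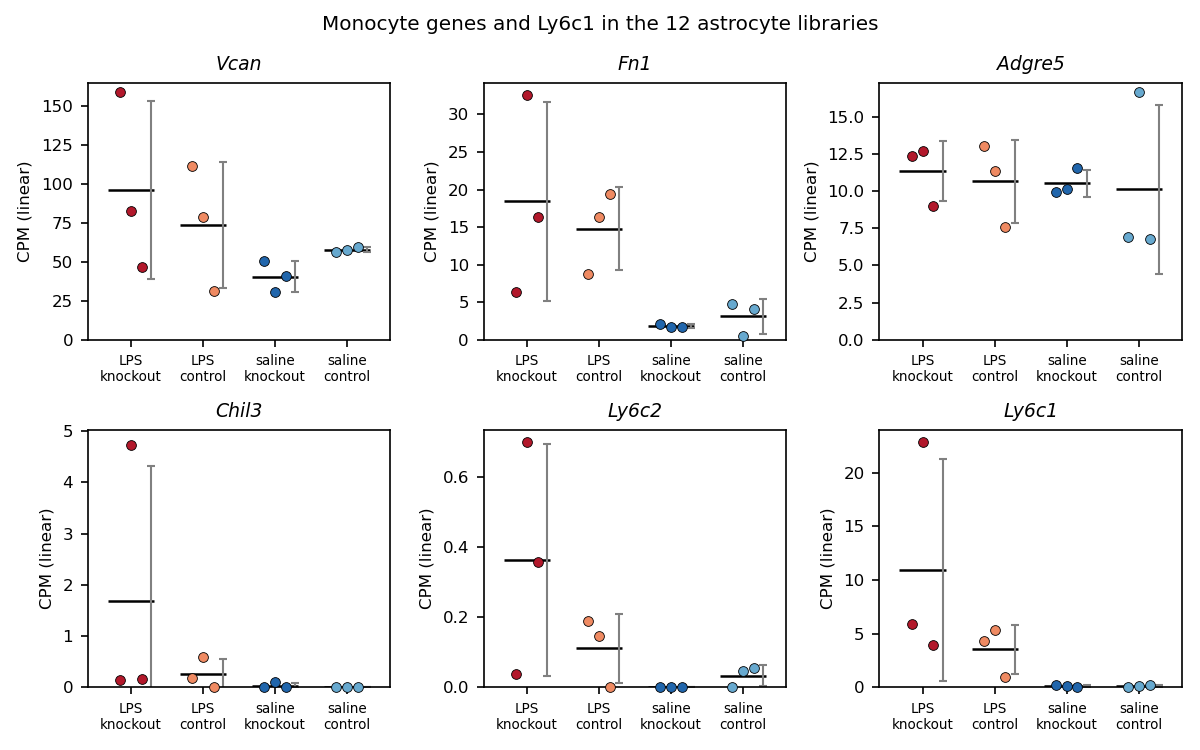
CPM (linear axis from 0) of the 3 monocyte genes that passed the filter in astrocytes (Vcan, Fn1, Adgre5), of Chil3 and Ly6c2, which did not, and of Ly6c1, in the 12 astrocyte libraries; points are libraries, black lines group means, grey bars ± 1 SD (drawn no lower than 0), n = 3 a group. Fn1 sits higher in every LPS than in any saline library, Adgre5 overlaps throughout, and Chil3 rests on 1 LPS knockout library.

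Adgre5 and Fn1 responded to LPS to different extents on the log2 scale in microglia and astrocyte preparations. In a fit over all 24 libraries and 24607 genes, the microglial minus the astrocytic response was 1.65 ± 0.33 for Adgre5 (SE; edgeR adjusted p = 0.0052) and -2.49 ± 0.49 for Fn1 (adjusted p = 0.0052). These were the 2 called of the 3 members that passed the filter in both cell types, where 2.6% of all genes were called. For Vcan it was -1.07 ± 0.40 (adjusted p = 0.175). The other 7 members were near 0 in saline astrocytes and entered this fit through the microglia libraries. The size of their fitted difference depends on the prior count and is not given, and that they were not called is not read as a result.

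Further genes of the same kinds were also higher in LPS astrocyte preparations. Over all 18188 genes tested, 6.9% were called and 4.98% were called higher. Ccl12, Ms4a6c, Hp, Clec4e, Ly6c1 and Ly6a averaged 0.0246 to 0.195 CPM with saline, where 3 counts came to 0.137 to 0.215 CPM. They passed the filter through their LPS libraries, so a call higher was largely set by the filter and their fold changes depend on the prior count. Of the 22 further classical monocyte genes 16 passed the filter and 8 were called higher, among them Lyz2 at 11.8 ± 6.01 CPM in LPS and 1.65 ± 0.604 CPM in saline preparations (SD, n = 6 each), Ms4a6c at 3.73 ± 3.11 and 0.100 ± 0.141 CPM, Hp (haptoglobin) at 1.82 ± 1.57 and 0.0547 ± 0.110 CPM, and Clec4e at 0.990 ± 1.24 and 0.0246 ± 0.0421 CPM. The call of Clec4e was lost with sex as a covariate (adjusted p = 0.053) and without saline control 2 or 3, any 1 saline knockout library, LPS control 2 or LPS knockout 2 (adjusted p up to 0.082). Of the patrolling list 7 passed, Pglyrp1 and Pou2f2 were called higher, with log2 fold changes of 4.26 and 1.97, and Nr4a1, an immediate early gene of many cell types, was called lower, at -0.93. The call of Pou2f2 was lost with the replicate number as a block (1.82, adjusted p = 0.059) and without any 1 saline library, LPS control 1 or 2, or LPS knockout 2 (1.40 to 2.12, adjusted p up to 0.136). Of the recruitment list 7 passed and 4 were called higher: Ccl12 (6.79), Ccl2 (4.53), Ackr1 (4.03), which marks venules, and Icam1 (3.92). LPS knockout 1 was the highest library for both, with 47.6 CPM of Ccl2 and 60.8 CPM of Icam1, and without it their log2 fold changes were 2.71 and 2.70, both still called. Their calls were lost without any 1 saline library or LPS control 2 (adjusted p up to 0.080 for Ccl2 and 0.110 for Icam1), and that of Icam1 also with the replicate number as a block (adjusted p = 0.060). Of the partners and relatives 21 passed and 10 were called, 9 of them higher, led by Ly6a (5.85), Ly6c1 (5.70), Ifitm3 (5.17) and the innate immune receptor gene Tlr2 (5.10). Tlr2 was 3.93 without LPS knockout 1 and lost its call without any 1 saline library (adjusted p up to 0.074), and Ly6a was called in every fit that left out 1 library, at 5.56 to 8.0, the highest without saline knockout 2. Hapln1, which links versican to hyaluronan, was the 1 called lower, at -1.32, and is named because it was the single exception.

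Markers of other cells moved beside these genes in astrocyte preparations, and their part in the values of Fn1 and Vcan was not tested. With LPS over both genotypes, 6.9% of all genes were called and 4.98% were called higher. The 8 endothelial markers summed to 15.9 to 72.7 CPM with LPS and 4.25 to 12.0 CPM with saline, with 6 called higher. The 8 fibroblast and mural markers summed to 93.4 to 132 CPM with LPS and 93.0 to 131 CPM with saline, with 2 called. The 8 border macrophage markers summed to 5.12 to 22.9 CPM with LPS and 2.87 to 8.86 CPM with saline. The 5 neuron markers summed to 74.5 to 157 CPM with LPS and 48.0 to 74.8 CPM with saline, with 3 called higher. The oligodendrocyte precursor markers summed to 58.6 to 312 CPM with LPS and 55.8 to 148 CPM with saline, and the 11 neutrophil markers to 2.58 to 26.2 and 0.228 to 2.16 CPM, with 7 to 10 of these at 0 in saline libraries. The neutrophil sum of 26.2 CPM was that of LPS knockout 2, the library that held most Chil3 counts.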

How the data were processed

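RNA was measured in 24 libraries of microglia and astrocyte preparations. As deposited, each table holds counts of reads for each Ensembl gene as whole numbers, not normalised, as checked on the values. Per the submitters' processing notes, STAR 2.6.0c and HTSeq (version not given) were used, and GRCm38 and GRCm39 were named without a role; annotation release and strand setting were not given in the sources used here. Rows that name no gene were left out of library sizes; gene counts were 20.7% to 29.4% of counted reads in microglia and 54.3% to 60.0% in astrocytes. Total RNA was made into libraries with the Ovation V2 and NEBNext Ultra kits, per the labels' protocols.

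Counts were fitted within each cell type (12 libraries, 1 mean per group) with edgeR 4.0.16 under R 4.3.3: filterByExpr (smallest count 10, smallest total 15), TMM scaling, and the robust quasi-likelihood test, two-sided. This kept 22230 genes in microglia and 18188 in astrocytes, over which p-values were adjusted by Benjamini-Hochberg; a gene was called at an adjusted p under 0.05. A fit over all 24 libraries gave the difference between cell types. CPM use TMM-scaled library sizes; log2 CPM add a prior count of 2. On simulated counts with 21906 microglia genes, 64.8% of genes changed by 1 on the log2 scale and 100% of those changed by 2 were called in the LPS comparison over both genotypes; with 17508 astrocyte genes these were 53.3% and 94.4%.

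The members, the lists and the tests were chosen with earlier results of these data known. All 10 members are named. From each other list, up to 4 called genes per comparison with the largest change are named, or, with none called, up to 2 with the highest mean CPM; the 5 genes nearest to Ccr2 and Ly6c2 were searched among annotated genes of at least 2 CPM. Alternatives were RLE factors, DESeq2 1.42.0, no filter, a minimum count of 50, the sex on the label as a term, replicate numbers as a block, only the groups compared, plain library sizes, and each library left out. The design text speaks of sibling pairs but the labels do not tie numbers to pairs. Coordinates are those of GENCODE M21 (GRCm38).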

Additional observations from a re-analysis of the deposited data

Results flagged for a closer look

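The LPS responses of Adgre5 and Fn1 differed between the 2 kinds of preparation, by the test of the difference itself. For Adgre5 the microglial minus the astrocytic log2 fold change came to 1.65 (SE 0.33, edgeR adjusted p = 0.0052): all 6 LPS microglia libraries were above all 6 saline ones, whereas LPS and saline astrocyte libraries overlapped. For Fn1 it was -2.49 (SE 0.49, edgeR adjusted p = 0.0052): all 6 LPS astrocyte libraries were above all 6 saline ones, whereas LPS and saline microglia libraries overlapped. This difference is one of log2 ratios from unlike baselines. Mean Fn1 was 2.47 CPM with saline and 16.6 CPM with LPS in astrocytes, and 64.3 and 78.0 CPM in microglia. Cell type went together with brain region, dissociation and gene annotation, and these cannot be told apart.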

How the results depend on the processing

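The 4 calls of Adgre4, F10, Plac8 and Adgre5 for LPS over both genotypes in microglia, and that of Fn1 in astrocytes, held under all alternatives run. Counts of called members moved by over 1.5 times as follows. The shares of all genes called without the filter or by DESeq2 are not set beside them, so a higher count may go with more calls over all genes. Without a filter on low counts they were 5 for LPS in control microglia (3 as reported), 2 for knockout over both injections (0; Plac8 and Chil3), 3 for LPS in astrocytes over both genotypes (1), 1 in control astrocytes (0), 3 in knockout astrocytes (1) and 5 for the difference between cell types (2). DESeq2 gave 1 in control astrocytes and 4 for that difference. Counts for that difference were taken over all members, also those near the limit of detection in astrocytes. Smaller moves included 4 with DESeq2 for LPS in control and in knockout microglia, and 5 for LPS over both genotypes in microglia (4) without a filter or without saline knockout 3, where Ifitm6 was added. Leaving out each library gave 1 to 4 for LPS in control and in knockout microglia (3 each), 1 to 2, 0 to 1 and 0 to 2 in astrocytes over both, in control and in knockout mice, and 2 to 4 for the difference between cell types. Of the counts at an unadjusted p under 0.05, alternatives chosen after seeing the data, the knockout count in LPS microglia was 5 without a filter and 0 to 4 leaving out libraries, and over both injections 4 to 7.

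Signs changed when single libraries were left out, in results that were not called: Ly6c2 from -0.045 to 0.17 and Chil3 from -0.95 to 0.019 for LPS in microglia; knockout over control in saline microglia, Ccr2 from -0.17 to 0.87 and Vcan from -0.16 to 0.26; in LPS microglia, Ccr2 from -0.73 to 1.22, Chil3 from -0.25 to 1.56, Vcan from -0.33 to 0.53 and Ifitm6 from -0.066 to 0.54; over both injections, Ccr2 from -0.27 to 0.76, Vcan from -0.13 to 0.30, Ackr1 from -0.094 to 0.17 and Csf1 from -0.20 to 0.0079; in astrocytes, Adgre5 from -0.020 to 0.38 for LPS, and Vcan from -0.35 to 0.14, Fn1 from -0.56 to 0.015 and Adgre5 from -0.039 to 0.36 for knockout. The causes were not tested.

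With the replicate number as a block, knockout over control called 0 members in microglia and in astrocytes, as without it; the member calls within each cell type were the same, the difference between cell types called 3 members (2 as reported), and Ackr1 turned to -0.0048. Same-numbered libraries deviated together, with every correlation over genes above 0.1, in LPS astrocytes alone (0.30, 0.16 and 0.35). In saline microglia, knockout 1, 2 and 3 went with control 1, 3 and 2 (0.44, 0.32 and 0.33), and all other pairs were negative. In LPS microglia they went with control 2, 1 and 3 (0.38, 0.12 and 0.32), and knockout 3 with control 1 was at 0.10. A block on replicate numbers therefore need not join the microglia libraries that deviated together, and it cannot settle the effect of pairing there. Depth limits the low members: 3 counts came to 0.207 to 0.636 CPM in microglia and 0.110 to 0.247 CPM in astrocytes.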

Other observations

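Red cell genes moved with LPS in the same microglia preparations. The 5 erythrocyte markers, chosen with earlier results of these data known, summed to 30.1 to 41.4 CPM in LPS and 44.9 to 156 CPM in saline microglia preparations. Of the 4 that passed the filter, 3 were called lower with LPS by edgeR, where 2.7% of all genes were called and 2.19% were called higher.

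Set against the microglial transcript P2ry12, which itself was lower with LPS, Ccr2 had 80.3 counts for every 1000 P2ry12 counts in LPS and 17.6 in saline microglia preparations, and 6.62 in LPS astrocyte preparations. In saline astrocytes Ccr2 had 0 counts, which allows up to 1.37 for every 1000 P2ry12 counts. Ly6c2 had 182 and 29.2 in LPS and saline microglia preparations and 29.8 in LPS astrocyte preparations. In saline astrocytes it had 2 counts, under the same limit.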
